A study of Mus musculus with 38 samples.

Results

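The comparison set intestinal epithelial cells of WT mice on day 7 of dextran sodium sulfate (DSS) treatment against those on day 3. Its members were the 14 libraries whose titles give the WT genotype and one of these days, 7 for each day, of 38 libraries in the series. WT mice were C57BL/6 littermate controls with floxed Hk2 alleles, for which the labels state no recombination. In the KO mice, set beside them in one place below, the labels pair floxed Hk2 with Cre driven by the Villin promoter, which is active along the intestinal epithelium. Per the labels, colitis was induced with 1.5% DSS in co-housed male mice aged 10 to 12 weeks. No library of either group came from an untreated mouse, so day 3 is an early treated state and not a baseline. Colon tissue is named in the series text, and intestinal epithelial cells in the labels of the samples. Each library is named here by its title (for example d7_WT_356), made of day, genotype and animal number. No label says more on how the animals of a group relate, so tests measured the spread between animals within a day.

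DSS damages the lining of the colon, and the injury deepens over the first week of treatment. The colonic epithelium is a single layer that renews from stem cells at the crypt base. Its absorptive colonocytes take up salt, water and short-chain fatty acids, and its goblet cells secrete the mucus that holds bacteria away from the tissue. An injured epithelium is known to secrete antimicrobial proteins and chemokines that attract neutrophils, and to pass through a wound-associated state with features of the fetal gut.

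Total counts were 26.7 to 50.1 M on day 3 and 25.2 to 54.1 M on day 7, and between 19084 and 22693 genes were detected per library. The level of 3 counts, taken as the floor of a library, was 0.0522 to 0.168 CPM on day 3 and 0.0525 to 0.144 CPM on day 7. CPM are counts per M of total counts, scaled between libraries by the trimmed mean of M values (TMM), and floors cover counting error only. Both d3_WT_381 and d7_WT_386 stood apart. They had the smallest totals, TMM factors of 0.668 and 0.829, and 37.6% and 24.5% of their counts in protein-coding genes of the mitochondrial genome, against 5.87 to 15.9% in the other 12 libraries. On the first principal component, which held 47.7% of the variance, day 3 libraries lay between -57.7 and -38.3 and day 7 libraries between 16.0 and 84.2, with d7_WT_356 and d7_WT_419 highest. Hk2 (hexokinase 2, chromosome 6, 82725025 to 82774454), the gene targeted in the KO mice, was 178 ± 48.0 CPM (SD, n = 7) in WT day 3 and 333 ± 125 CPM (SD, n = 7) in WT day 7. It was 147 ± 117 CPM (SD, n = 8) in KO day 3 and 139 ± 70.2 CPM (SD, n = 7) in KO day 7. The library labelled d3_KO_345 held 433 CPM, above every WT day 3 library (at most 225 CPM), which goes against its label. On day 7 the genotypes overlapped as well, at 55.9 to 262 CPM in KO and 227 to 607 CPM in WT. These Hk2 values are scaled over WT and KO libraries together.

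Epithelial identity was similar on both days, and leukocyte markers were not. Epcam, an adhesion protein of epithelial cells, was 1257 to 1964 CPM on day 3 and 1380 to 1669 CPM on day 7. Of 19 epithelial markers tested, 1 was called higher on day 7, with a median log2 fold change of 0.01. That gene was Cdh17, an intestinal cadherin, at 583 to 909 CPM on day 3 and 918 to 1232 CPM on day 7. Without d3_WT_381, 6 of the epithelial markers were called higher.

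Summed neutrophil markers were 177 to 270 CPM on day 3 and 466 to 1859 CPM on day 7, with d7_WT_356 (1859 CPM) and d7_WT_419 (1575 CPM) above the rest. These sums understate the rise of single markers, whose median log2 fold change was 7.32. S100a8 had a mean of 0.104 CPM on day 3 and 102 CPM on day 7. The day 3 sum thus came mostly from other markers and is not a measure of neutrophil RNA. Of 24 such markers, 9 had 3 counts or fewer in every day 3 library. Of the 20 tested, 19 were called higher and none of their day 7 libraries overlapped day 3. Over all genes tested these shares were 10.6% and 2.88%. In 5 of the 20, no day 3 library exceeded 3 counts. Those could pass the filter only through day 7, so their higher level and lack of overlap were nearly fixed in advance. Others with few day 3 counts, such as S100a8 (at most 15) and Il1r2 (at most 11), also passed mainly through day 7. The count of 19 thus describes the list and is not a test of it. Monocyte and macrophage markers summed to 50.2 to 60.7 CPM on day 3 and 121 to 478 CPM on day 7, with 16 of 17 called higher. All 12 pan-leukocyte markers were called higher. Their median log2 fold change was 2.17, and their sum was 26.7 to 81.1 CPM on day 3 and 85.1 to 471 CPM on day 7. Among 20 T cell and intraepithelial lymphocyte markers, 9 were called higher, a count that ran from 3 (without d7_WT_419) to 13 (without d7_WT_393) over the fits leaving out 1 library. In B and plasma cells 9 of 12 tested markers were called higher, among them Igkc, Igha and Jchain, which encode chains of secreted antibody. Stromal and endothelial markers overlapped, at 30.5 to 158 CPM and 48.9 to 235 CPM, with 2 of 17 called higher and 1 lower. These shares, 11.8% and 5.88%, were near the 10.6% and 8.7% of all genes tested. In bulk RNA, fewer cells of a type and less RNA per cell cannot be told apart, and neither can more cells and more RNA.

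Across all genes, 3002 of 15541 tested (19.3%) were called at an edgeR adjusted p under 0.05. On day 7, 1650 (10.6%) stood higher and 1352 (8.7%) lower. The median log2 fold change was 0.01 over all genes, 1.03 over the higher calls and -0.80 over the lower calls. Changes upward reached further, with 395 genes higher by at least 4-fold and 90 lower by as much. At 16-fold or more there were 106 higher and 9 lower. In 447 genes (2.88%) every day 7 library was above every day 3 library, and in 279 genes (1.8%) every one was below. Counts of list members above and below are read against these shares. Genes with few counts on day 3 passed the filter mainly through day 7, which partly set their higher level and lack of overlap in advance. Among those named below are Lcn2, Cxcl3 and Il1f9, with at most 14, 10 and 4 counts in a day 3 library. Leaving out 1 library in turn gave 2323 (without d7_WT_356) to 4051 (without d3_WT_381) calls. When the mean log2 CPM of pan-leukocyte markers was added as a covariate, 173 genes were called, 159 of them among the 3002 and in the same direction. That score was 0.23 to 2.17 on day 3 and 2.34 to 4.74 on day 7, so it did not overlap between the days and its part in the calls cannot be told apart from the day. With it, 0 genes were called among the interferon, class I, glycolysis, stem cell and gut position lists described below. With and without it, the median log2 fold change was -0.59 and -0.58 for the stem cell list and 0.48 and 0.30 for glycolysis. It was -0.20 and -0.86 for gut position, -0.12 and 0.39 for the interferon list, and 0.20 and 0.51 for class I. Lost calls thus came with smaller or reversed medians in some of these lists and not in others. Under the leukocyte score 13 neutrophil markers were still called higher, so a call kept under it does not show the cell of origin.

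**Figure D1:**
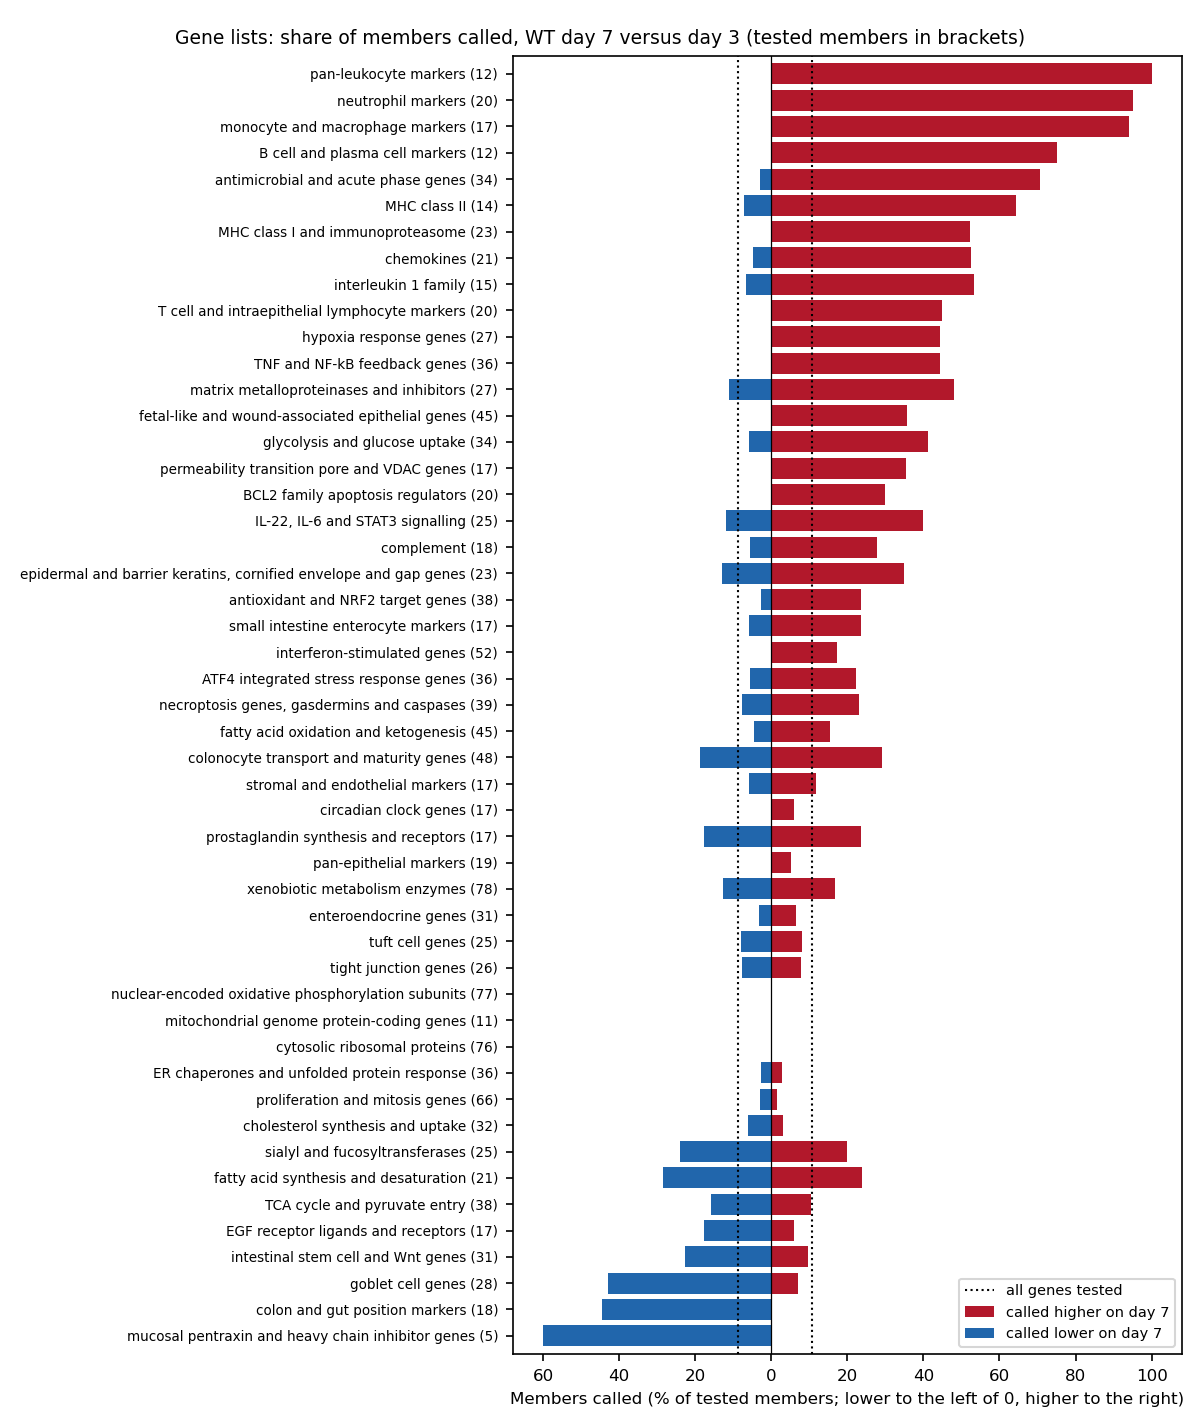
Share of the tested members of each gene list that was called higher (right) or lower (left) on day 7, in percent of members tested, with dotted lines at the shares of all genes tested. Leukocyte and antimicrobial lists lie far beyond the dotted line for higher genes, which stands at 10.6%, while lists of goblet cell and gut position genes lie beyond the line for lower genes at 8.7%.

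Antimicrobial and acute phase genes were higher on day 7 in most members. Of 34 tested, 24 were called higher and 1 lower, and in 16 the groups did not overlap. Their median log2 fold change was 2.12. Together they took 15397 to 21801 CPM on day 3 and 27757 to 74199 CPM on day 7. Reg3b and Reg3g are C-type lectins that the gut epithelium secretes against bacteria. Reg3b was 55.0, 545 and 1831 CPM (lowest, median and highest library) on day 3 and 3311, 9096 and 26833 CPM on day 7, which gave 3.80 ± 0.81 (SE) on the log2 scale and an edgeR adjusted p of 0.0043. All 7 day 7 libraries were above all day 3 libraries. Reg3g was 82.2, 329 and 504 CPM on day 3 and 657, 1832 and 8316 CPM on day 7, which gave 3.12 ± 0.57 (SE) on the log2 scale and an edgeR adjusted p of 0.00143. Here too the days did not overlap, and without d7_WT_356 the log2 fold change was 2.43.

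Within the Reg cluster on chromosome 6 (78370885 to 78468872) the members did not move as one. Reg3a and Reg3d rose with log2 fold changes of 3.10 and 5.48, or 2.13 and 4.20 without d7_WT_356. Reg2 fell from a median of 0.411 CPM to 0.0583 CPM, close to the floor. Reg1 was not called, at medians of 0.776 and 1.21 CPM.

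Saa3 and Lcn2 started low and did not overlap between the days. Saa3, an acute phase protein made at mucosal surfaces, was 0.332, 1.36 and 8.23 CPM on day 3 and 9.20, 33.4 and 157 CPM on day 7. The log2 difference was 4.65 ± 0.81 (SE) at an edgeR adjusted p of 0.00101. Lcn2, lipocalin 2, which withholds iron from bacteria and is made by epithelium and neutrophils, was 0, 0.111 and 0.293 CPM on day 3 and 1.82, 9.52 and 94.6 CPM on day 7. Lcn2 was highest in d7_WT_356 (94.6 CPM) and d7_WT_419 (66.0 CPM), the libraries with most neutrophil markers. The log2 difference was 7.66 ± 1.02 (SE) at an edgeR adjusted p of 0.000137, or 6.94 without d7_WT_356. The part of neutrophil RNA in these values was not tested.

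Enzymes that make oxidants at the cell surface rose together. Duox2 makes hydrogen peroxide at the apical membrane, and Duoxa2, its neighbour on chromosome 2, encodes its maturation factor. Duox2 was 69.0, 99.8 and 154 CPM on day 3 and 237, 286 and 967 CPM on day 7, which gave 1.96 ± 0.30 (SE) on the log2 scale and an edgeR adjusted p of 0.000407. Duoxa2 rose from a median of 12.2 to 63.5 CPM, and in both genes no day 7 library overlapped day 3. Nos2, the inducible nitric oxide synthase, was 1.27, 2.66 and 7.10 CPM on day 3 and 24.7, 57.0 and 287 CPM on day 7, with a log2 fold change of 4.66 (SE 0.59), or 3.94 without d7_WT_356. Abundant Dmbt1, a secreted scavenger protein of the mucosa, rose from a median of 5686 to 11759 CPM, a log2 fold change of 1.27 without overlap.

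Trim40, a ubiquitin ligase of the gut epithelium, was 17 to 35.5 CPM on day 3 and 66.8 to 166 CPM on day 7. The log2 difference was 2.00 ± 0.21 (SE) at an edgeR adjusted p of 5.53e-05. The exception in the list was Wfdc2, a secreted protease inhibitor, which fell by 1.09 on the log2 scale from a median of 189 to 86.6 CPM. Under the leukocyte covariate, 5 of the list were called higher, and with a small intestine marker score as covariate, 13 were.

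Promoters are shown for 2 secreted genes that hold the NF-kB core, Saa3 (low on day 3) and Reg3g (higher). They are RefSeq windows of GRCm38.p6, from 250 bases before to 50 after the start, written 5′ to 3′ on the gene's strand. Reg3g lies at chr6:78468825-78469124 and Saa3 at chr7:46715627-46715926, both on the minus strand. Capitals mark matches, on either strand, to the core of the interferon response element (GAAANNGAA) or of the NF-kB site (GGNNTTTCC).
Reg3g: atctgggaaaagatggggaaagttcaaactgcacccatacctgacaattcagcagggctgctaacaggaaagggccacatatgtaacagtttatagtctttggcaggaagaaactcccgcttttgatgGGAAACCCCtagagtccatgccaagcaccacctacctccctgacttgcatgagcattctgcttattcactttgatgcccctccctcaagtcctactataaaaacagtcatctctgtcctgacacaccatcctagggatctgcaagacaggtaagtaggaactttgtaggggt
Saa3: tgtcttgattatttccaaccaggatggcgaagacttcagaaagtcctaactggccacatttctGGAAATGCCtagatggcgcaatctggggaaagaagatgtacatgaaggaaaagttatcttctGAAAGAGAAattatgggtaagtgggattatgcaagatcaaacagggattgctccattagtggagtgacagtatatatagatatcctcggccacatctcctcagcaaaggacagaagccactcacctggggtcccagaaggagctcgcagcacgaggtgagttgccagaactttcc
In Reg3g the NF-kB core began 122 bases before the start. In Saa3 the interferon core began 125 and the NF-kB core 187 bases before it. The NF-kB core occurred in 5.69% of 24654 promoter windows of this length, in 6.12% of 8515 windows of tested genes and in 7.67% of the 900 called higher. Of 22 antimicrobial genes with a window, 9.09% held it, so the 2 shown do not stand for the list. These matches describe letters and are not evidence of binding.

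**Figure D2:**
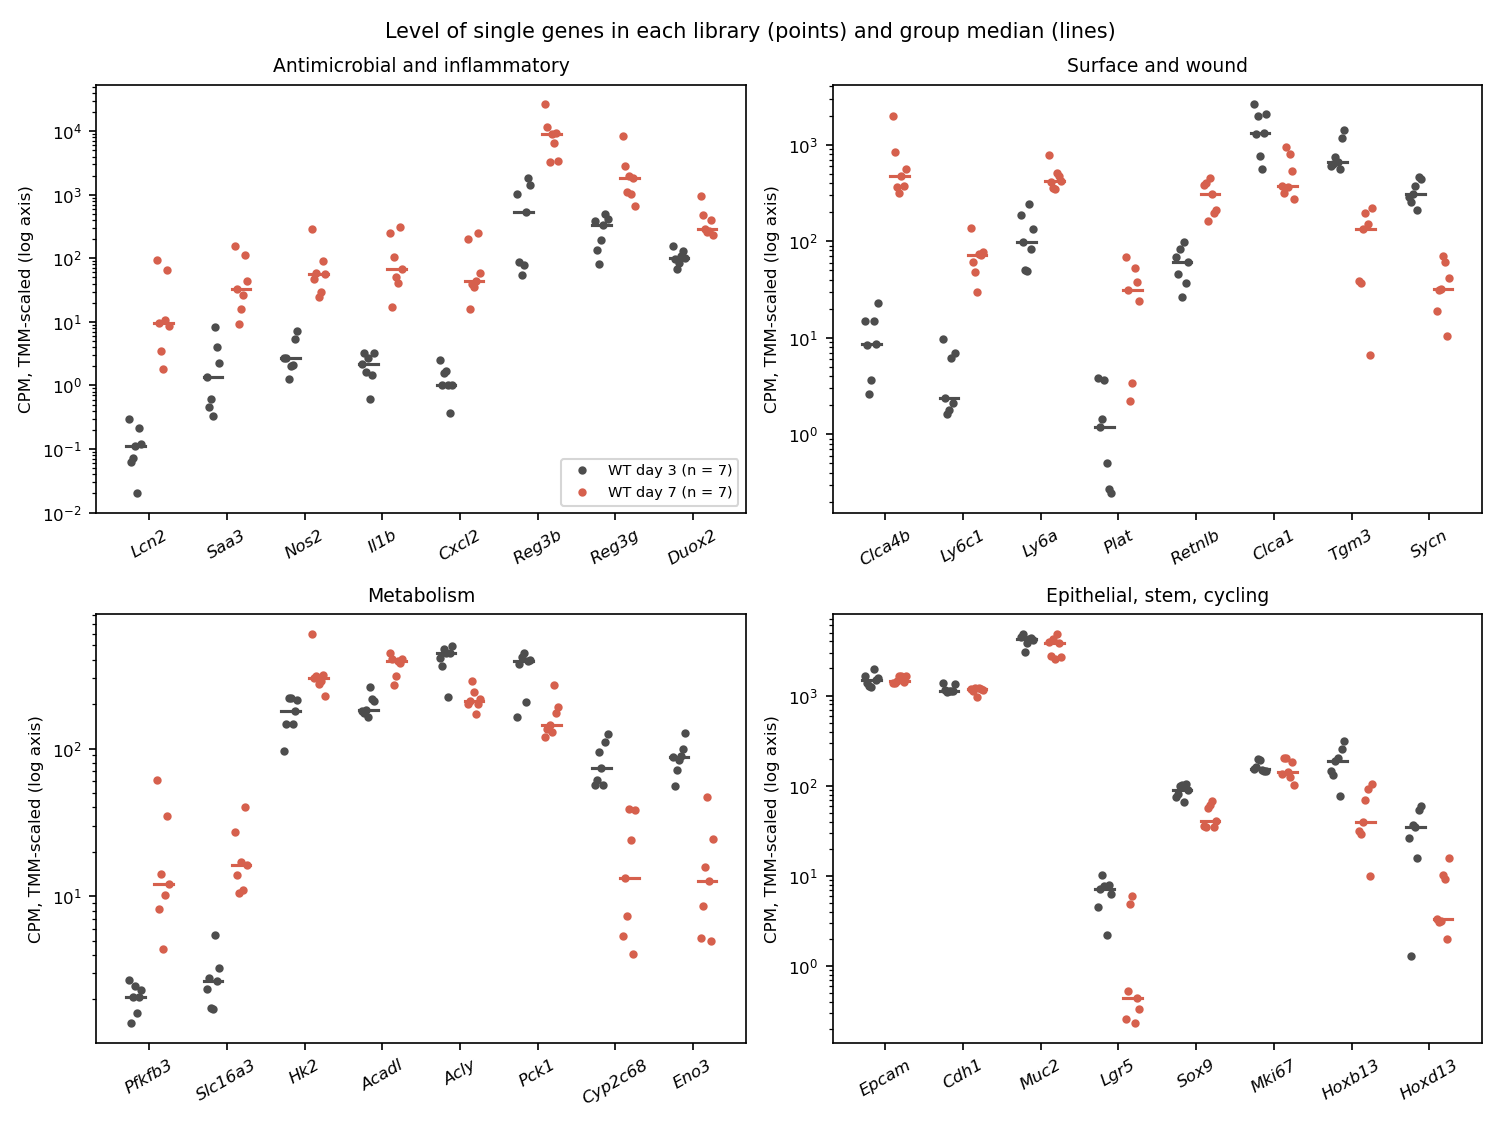
Level of 32 genes in each library, in TMM-scaled CPM on a log axis, with day 3 and day 7 libraries in separate colours and a bar at each group's median. A value of 0 is drawn at the bottom of the axis. Reg3b (55.0 to 1831 CPM on day 3 and 3311 to 26833 CPM on day 7) separates the days, while Hoxd13 (1.29 to 60.4 CPM and 1.98 to 16.0 CPM) overlaps.

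Chemokines, which guide leukocytes into tissue, rose in 11 of 21 tested, and 1 fell. The neutrophil-attracting CXC cluster on chromosome 5 (90759360 to 90905938) held the 2 largest log2 fold changes of the list, in Cxcl3 and Cxcl2. Cxcl2 was 0.369, 1.01 and 2.49 CPM on day 3 and 15.7, 43.7 and 252 CPM on day 7, which gave 6.14 ± 0.68 (SE) on the log2 scale and an edgeR adjusted p of 5.9e-05. No library overlapped. Cxcl3 rose from a median of 0.0714 to 9.27 CPM and Cxcl5 from 2.49 to 13.3 CPM. Cxcl1, between them in the cluster, was 1.41, 4.28 and 12.7 CPM on day 3 and 8.72, 13.8 and 22.9 CPM on day 7, and was not called (log2 fold change 1.09, SE 0.47, edgeR adjusted p 0.119).

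Ccl20, which recruits cells bearing the receptor CCR6, rose from a median of 2.91 to 5.95 CPM, with 1 day 7 library at 37.7 CPM. Ccl6, the most abundant by count of the list at 281, 362 and 498 CPM on day 3, fell to 109, 197 and 265 CPM. The log2 difference was -0.92 ± 0.18 (SE) at an edgeR adjusted p of 0.00272, with no overlap. Under the leukocyte covariate, 3 of the 21 were called higher, Cxcl2 and Cxcl3 among them.

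The promoters of Cxcl2 (chr5:90903649-90903948) and Cxcl3 (chr5:90785851-90786150), both on the plus strand, are shown because these chemokines rose most. They were chosen after their values were seen, and capitals mark the NF-kB core.
Cxcl2: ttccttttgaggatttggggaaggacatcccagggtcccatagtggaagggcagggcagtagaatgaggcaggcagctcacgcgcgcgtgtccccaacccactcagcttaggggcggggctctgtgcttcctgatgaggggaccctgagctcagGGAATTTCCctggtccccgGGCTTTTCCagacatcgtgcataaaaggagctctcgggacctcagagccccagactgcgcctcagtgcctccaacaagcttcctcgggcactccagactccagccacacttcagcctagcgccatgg
Cxcl3: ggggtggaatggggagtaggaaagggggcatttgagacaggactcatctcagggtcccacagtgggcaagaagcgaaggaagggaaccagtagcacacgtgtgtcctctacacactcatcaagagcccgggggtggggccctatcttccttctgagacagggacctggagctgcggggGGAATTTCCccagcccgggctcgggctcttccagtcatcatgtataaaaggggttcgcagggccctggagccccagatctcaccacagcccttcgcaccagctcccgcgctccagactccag
The core began 96 and 77 bases before the start in Cxcl2 and 72 bases before it in Cxcl3. It was present in 50.0% of 14 tested chemokines with a window and in 57.1% of the 7 that were called higher. As a family the CXC genes arose by duplication and share sequence, so these are not independent observations.

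**Figure D3:**
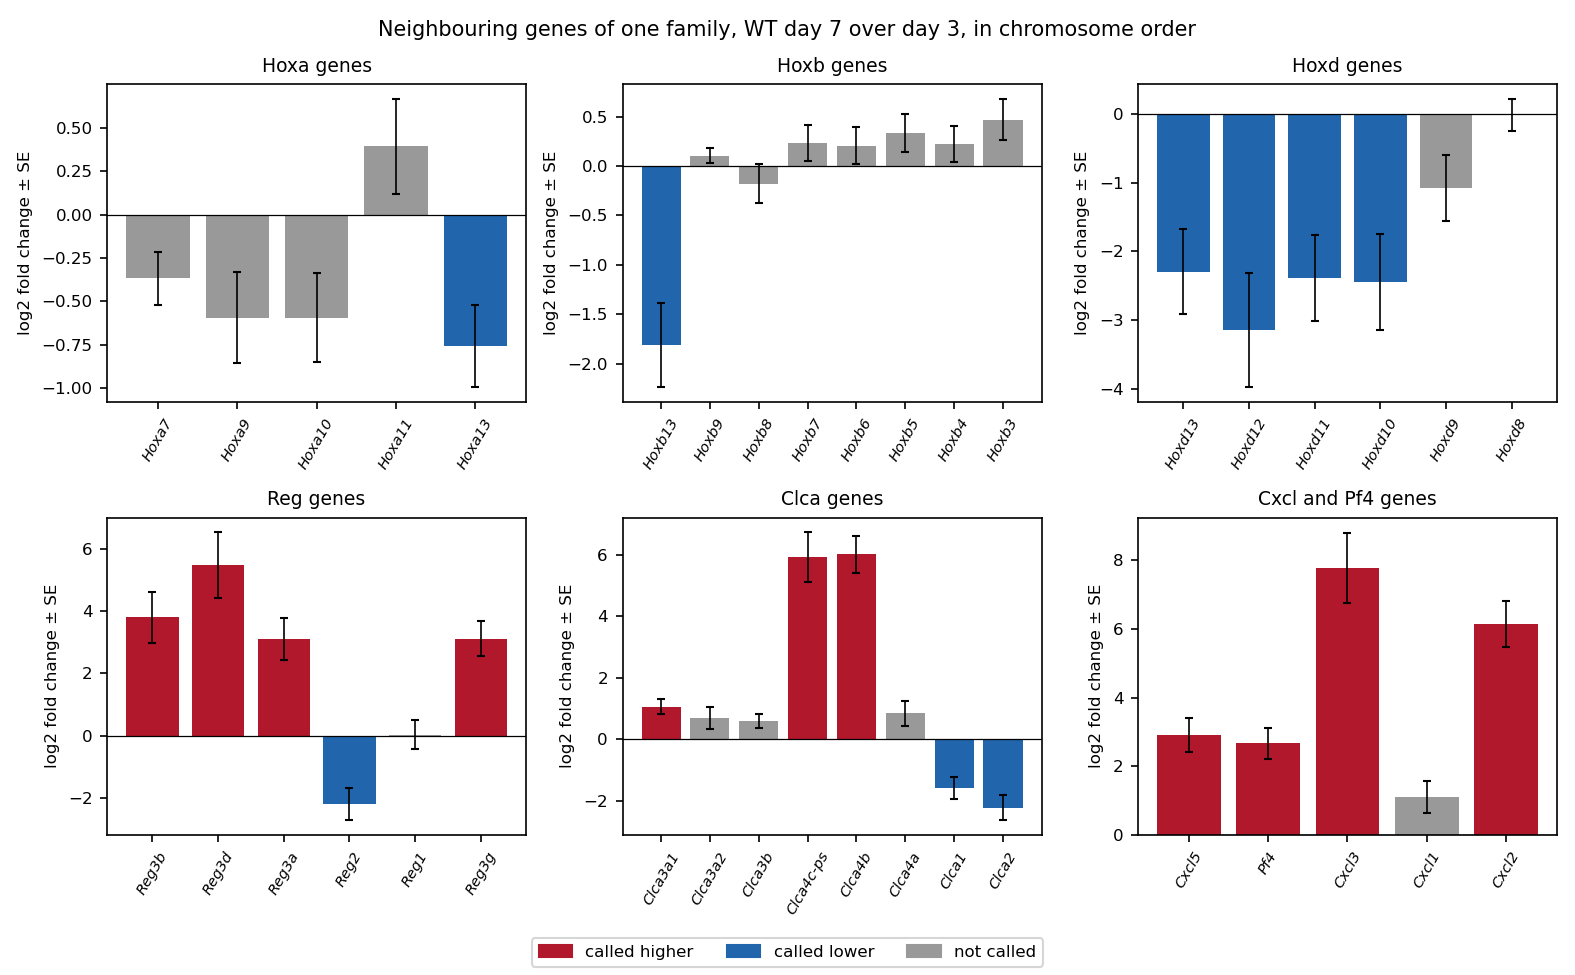
Log2 fold change of day 7 over day 3 with its SE for genes of the Hoxa, Hoxb, Hoxd, Reg, Clca and CXC chemokine clusters, in chromosome order, with called genes in colour. Neighbours differ within clusters: Clca4b is at 6.01 beside Clca4a at 0.85, and Hoxd13 is at -2.30 while Hoxd8 is at -0.02.

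Interleukin 1 genes were called higher in 8 of 15 tested and lower in 1. The cytokine Il1b was 0.616, 2.18 and 3.25 CPM on day 3 and 17, 68.5 and 309 CPM on day 7, which gave 5.76 ± 0.64 (SE) on the log2 scale and an edgeR adjusted p of 6.07e-05. Il1a rose by a log2 fold change of 6.29, or 5.50 without d7_WT_356, and Il1f9, an interleukin 36 cytokine, rose from at most 4 counts in any day 3 library to a median of 1.69 CPM. Il1r2, a decoy receptor that binds interleukin 1 without signalling and is also a neutrophil marker, rose by 6.85, or 6.23 without d7_WT_419. Il33, an alarmin, rose from a median of 1.58 to 6.30 CPM. Il1rn, the receptor antagonist, was not called, at medians of 88.1 and 146 CPM, and neither was Il18, at 92.9 and 142 CPM. Il1rl2, the receptor of interleukin 36, fell from a median of 3.37 to 0.928 CPM.

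Tumour necrosis factor and NF-kB feedback genes rose in 16 of 36 tested, with a median log2 fold change of 0.37. Tnf was 4.05, 11.1 and 20.8 CPM on day 3 and 28.3, 38.0 and 51.8 CPM on day 7, which gave 1.92 ± 0.32 (SE) on the log2 scale and an edgeR adjusted p of 0.000725 without overlap. Tnfaip3 and Nfkbiz, induced regulators of NF-kB that restrain and extend its response, rose by log2 fold changes of 0.99 and 0.73. Tlr2, a receptor of bacterial lipoproteins, rose by 1.01 from a median of 24.2 to 53.2 CPM, with no overlap. No gene of the list was called higher with the leukocyte score as covariate.

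In the interleukin 6 family members moved in both directions. Osm, oncostatin M, rose from a median of 0.292 to 5.52 CPM, and its receptor Osmr from 0.288 to 1.44 CPM. Socs3, a feedback inhibitor of STAT3, was 21.4, 34.7 and 83.8 CPM on day 3 and 69.3, 126 and 289 CPM on day 7. The log2 difference was 1.62 ± 0.34 (SE) at an edgeR adjusted p of 0.00356. Pim1, a kinase induced by STAT proteins, rose by 1.23 with no overlap. Lifr, which pairs with the shared receptor of this family, fell from a median of 5.6 to 1.11 CPM (log2 fold change -2.21, SE 0.31), and Cish, a feedback inhibitor of STAT5, fell from 18.5 to 10.8 CPM. The list of 25 held 10 higher and 3 lower calls.

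Interferon-stimulated genes were called higher in 9 of 52, or 17.3%, and none had groups that did not overlap. The count ran from 5 (without d3_WT_346) to 15 (without d3_WT_381) over the fits leaving out 1 library. Irf7 was 50.2 to 135 CPM on day 3 and 39.7 to 116 CPM on day 7, and was not called. Zbp1, a sensor of nucleic acid that can start necroptosis, rose from a median of 16.7 to 42.5 CPM (log2 fold change 1.04, SE 0.27, edgeR adjusted p 0.0129).

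Ifitm3, which blocks virus entry, was 4.28, 6.58 and 8.90 CPM on day 3 and 4.81, 15.5 and 22.3 CPM on day 7. Its log2 fold change was 0.96 (edgeR adjusted p 0.03), and the call was lost in 7 of the 14 fits leaving out 1 library, with adjusted p up to 0.0634. Its promoter (chr7:141010695-141010994, minus strand) is shown because it packs 2 interferon cores (GAAANNGAA) and a STAT core (TTCNNNGAA) into a short stretch, in capitals.
Ifitm3: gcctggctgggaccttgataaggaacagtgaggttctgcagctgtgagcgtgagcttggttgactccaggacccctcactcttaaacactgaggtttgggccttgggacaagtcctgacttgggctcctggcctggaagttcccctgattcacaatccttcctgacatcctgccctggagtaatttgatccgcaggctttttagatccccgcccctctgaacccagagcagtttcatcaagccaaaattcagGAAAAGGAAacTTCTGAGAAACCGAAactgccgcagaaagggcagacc
These began 3, 14 and 20 bases after the start, the STAT core being the one at 14. It shares letters with the interferon core at 20, so these 2 are not separate matches. Of 272 promoters with both cores, 40 had them overlapping. The interferon core was present in 68.8% of 32 interferon-stimulated genes with a window, against 7.14% of tested genes and 8.71% of all windows. So the list holds the motif it is known for, while most of its members were not called on day 7.

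Antigen presentation genes rose modestly in class I and more in class II. Of 23 class I and immunoproteasome genes, 12 were called higher, or 6 without d7_WT_419. B2m, the shared light chain, was 228, 256 and 503 CPM on day 3 and 370, 418.6 and 640 CPM on day 7, where the highest day 3 library was d3_WT_381. H2-D1, a class I heavy chain, rose from a median of 536 to 793 CPM. Of 14 class II genes, 9 were called higher and 1 lower. Cd74, the class II chaperone, was 14.4, 29.1 and 141 CPM on day 3 and 107, 131 and 327 CPM on day 7, with the 141 CPM again in d3_WT_381. The log2 difference was 2.07 ± 0.49 (SE) at an edgeR adjusted p of 0.00823, or 2.77 without that library. Ciita, the class II master activator, missed the threshold (log2 fold change 1.59, SE 0.54, edgeR adjusted p 0.0518). Leukocytes also carry class II proteins, and their markers rose as given above; their part was not tested.

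Goblet cell genes were called lower in 12 of 28 tested and higher in 2. The regulators fell while the main mucin did not pass the test. Atoh1, the factor that commits cells to the secretory lineage, was 31.4, 79.3 and 87.2 CPM on day 3 and 33.0, 39.1 and 51.0 CPM on day 7, which gave -0.77 ± 0.19 (SE) on the log2 scale and an edgeR adjusted p of 0.0113. Foxa3 and Creb3l1, transcription factors of goblet cells, fell by 0.86 and 0.69 on the log2 scale. Ern2, a sensor of protein folding in mucous cells, fell by 0.75. Muc2, the gel-forming mucin, was 3079, 4247 and 4780 CPM on day 3 and 2549, 3788 and 4838 CPM on day 7, which gave -0.22 ± 0.17 (SE) on the log2 scale and an edgeR adjusted p of 0.391. Tff3, which goblet cells secrete with the mucin, was likewise not called at medians of 397 and 336 CPM.

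Opposite changes stood side by side in secreted goblet proteins. Clca1, a mucus-processing protease, was 561, 1317 and 2636 CPM on day 3 and 272, 369 and 953 CPM on day 7, which gave -1.57 ± 0.36 (SE) on the log2 scale and an edgeR adjusted p of 0.00672. The groups overlapped. Retnlb, a bactericidal goblet protein, was 26.5, 60.1 and 97.9 CPM on day 3 and 162, 307 and 455 CPM on day 7, which gave 2.33 ± 0.30 (SE) on the log2 scale and an edgeR adjusted p of 0.000125 with no overlap. It was still called with the leukocyte score (log2 fold change 2.81) and with the small intestine score (2.27) as covariate. With the leukocyte score, 1 goblet gene was called higher and none lower, where 2 and 12 were called without it. The median log2 fold change of the list was -0.34 with the score and -0.48 without. Without the score, 18 of the 28 had an unadjusted edgeR p under 0.05.

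**Figure D4:**
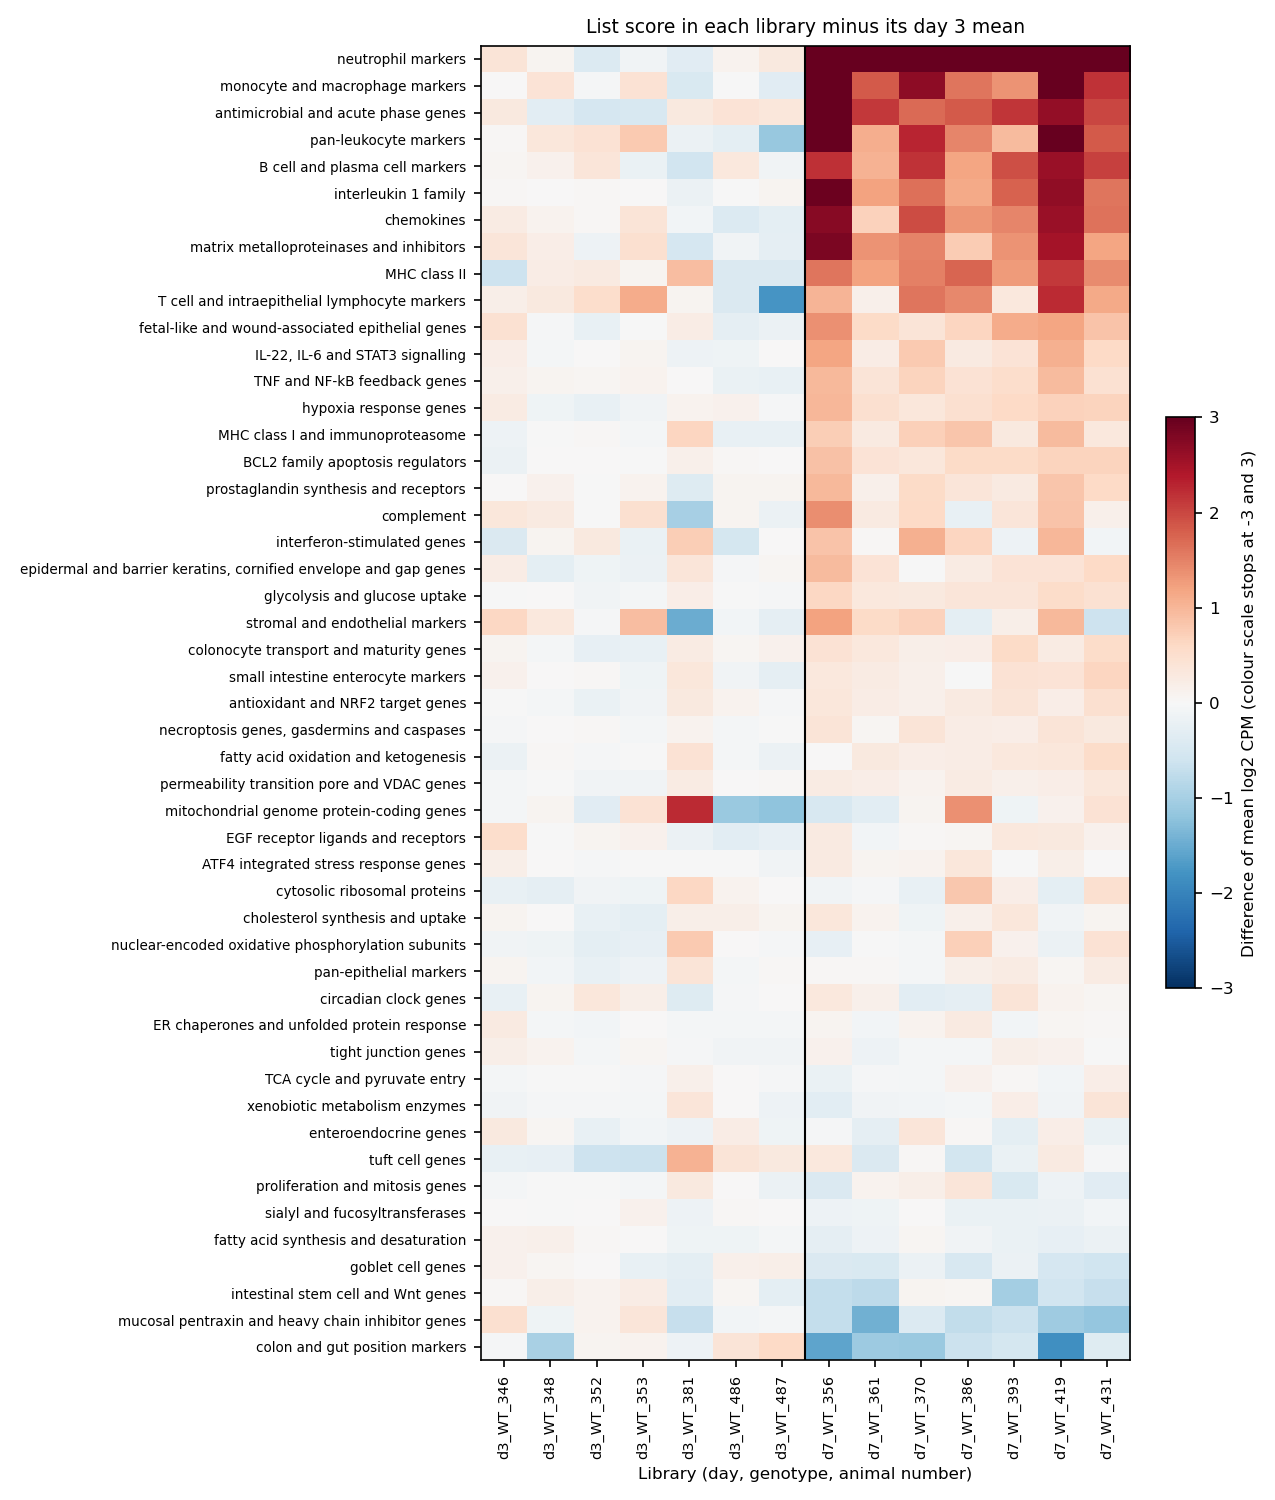
Mean log2 CPM of each gene list in each library, minus the mean of the day 3 libraries, as a colour scale that stops at -3 and 3. Neutrophil, macrophage and pan-leukocyte lists are highest in d7_WT_356 and d7_WT_419, T cell markers are highest in d7_WT_419 (a score of 2.80) and overlap between the days, and d3_WT_381 differs from the other day 3 libraries in several lists.

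Colonocyte transport and maturity genes split in both directions, with 14 of 48 tested higher and 9 lower. The largest change was in Clca4b (chromosome 3, 144910921 to 144932529), a surface protein of the calcium-activated chloride channel regulator family. It was 2.59, 8.67 and 22.6 CPM on day 3 and 315, 476 and 1960 CPM on day 7, which gave 6.01 ± 0.60 (SE) on the log2 scale and an edgeR adjusted p of 3.92e-05. The lowest day 7 library was thus more than every day 3 library, and the call held with the leukocyte score (log2 fold change 6.24, edgeR adjusted p 0.0102). Its neighbour Clca4a was 35.3, 83.3 and 278 CPM on day 3 and 148, 228 and 319 CPM on day 7 and was not called. Reads of these similar genes may have been divided by the counting, which makes the split between them uncertain.

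Sodium and phosphate handling changed in a mixed way. Slc9a3, the apical sodium-proton exchanger, rose from a median of 58.6 to 130 CPM (log2 fold change 1.38, SE 0.21, edgeR adjusted p 0.000329) with no overlap. Scnn1a, a subunit of the epithelial sodium channel, fell from 98.4 to 67.2 CPM (log2 fold change -0.74, SE 0.12), also with no overlap. Slc20a1, a phosphate transporter, fell by 1.27, Trpm6, a magnesium channel, by 1.08 and Slc5a8, which carries short-chain fatty acids with sodium, by 0.75 on the log2 scale. Atp12a, the colonic proton-potassium pump, was 62.8, 86.5 and 251 CPM on day 3 and 7.34, 31.2 and 76.6 CPM on day 7. Slc51a and Slc51b, the pair that exports bile acids, rose by log2 fold changes of 1.15 and 1.63. Aqp8, a water channel of surface colonocytes, and Car1, its carbonic anhydrase, were not called, at medians of 150.2 and 95.1 CPM and of 5058 and 9074 CPM. The higher count was 8 without d3_WT_348 and the lower count 6 without d7_WT_356. With the leukocyte score as covariate 1 gene was called higher.

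Genes that mark the hindmost gut were lower on day 7. Of 18 gut position markers, 8 were called lower, or 5 without d7_WT_356 or without d3_WT_348, and 4 of the 18 had a positive log2 fold change. Hox genes give the position along the body axis, and those at one end of each cluster, numbered highest, mark the hindgut. Hoxb13 (chromosome 11, 96194316 to 96197447) was 77.5, 191 and 314 CPM on day 3 and 10.1, 40 and 104 CPM on day 7, which gave -1.81 ± 0.43 (SE) on the log2 scale and an edgeR adjusted p of 0.00794. Hoxb9 in the same cluster was 56.3 to 75.3 CPM on day 3 and 66.3 to 82.5 CPM on day 7 and was not called. Hoxd13 was 1.29, 34.9 and 60.4 CPM on day 3 and 1.98, 3.34 and 16.0 CPM on day 7, which gave -2.30 ± 0.62 (SE) on the log2 scale and an edgeR adjusted p of 0.017. The 1.29 CPM came from d3_WT_348, in which Hoxd10 and Hoxd12 were at 0 counts. Hoxd11 and Hoxd12 fell by 2.39 and 3.15 on the log2 scale, while Hoxd8 (-0.02) and Hoxd9 (-1.08) were not called. Hoxa13 fell by 0.76, a call lost in 8 of the 14 fits leaving out 1 library (adjusted p up to 0.0762).

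Small intestine markers, set beside these, summed to 442 to 1467 CPM on day 3 and 535 to 927 CPM on day 7, the highest being d3_WT_381. Of 17 tested, 4 were called higher and 1 lower. Slc10a2, which takes up bile acids in the ileum, rose from a median of 10.6 to 47.2 CPM, and Creb3l3, a factor of absorptive enterocytes, rose by a log2 fold change of 2.52. Fabp6 and Sis, which define ileal and small intestinal enterocytes, stayed at 1.61 to 7.89 and 2.51 to 12.3 CPM and at 2.08 to 6.21 and 2.68 to 5.43 CPM, and neither was called. Whether the same stretch of gut was sampled on both days is not given in the labels, and the part of position in the colonocyte and goblet results was not tested. With the small intestine score as covariate, 446 genes were called, 444 of them among the 3002, and 1 of the position markers was.

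Several secreted or extracellular proteins and a crosslinking enzyme fell. Mptx1, a mucosal pentraxin of the colon, was 168, 918 and 1894 CPM on day 3 and 0.455, 1.28 and 94.5 CPM on day 7, which gave -5.29 ± 1.18 (SE) on the log2 scale and an edgeR adjusted p of 0.00576. It was -6.11 without d7_WT_386. On day 7 it was 94.5 CPM in d7_WT_386, 76.0 CPM in d7_WT_370, 8.40 CPM in d7_WT_393 and 0.455 to 1.28 CPM in the other 4. Sycn, syncollin, a secretory granule protein, was 213, 309.6 and 463 CPM on day 3 and 10.3, 31.6 and 69.7 CPM on day 7, which gave -3.16 ± 0.36 (SE) on the log2 scale and an edgeR adjusted p of 6.07e-05. It remained called with the leukocyte score as covariate. Tgm3, a protein-crosslinking transglutaminase, fell from a median of 664 to 133 CPM, and Itih2 and Itih5, heavy chains of a protease inhibitor that stabilise matrix, fell by 4.34 and 1.31 on the log2 scale. In Mptx1, Sycn, Tgm3 and Itih2 the days did not overlap, which was a condition for choosing them among the largest changes.

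Stem cell and Wnt genes were called lower in 7 of 31 tested and higher in 3. Sox9, a factor of crypt base cells, was 66.6, 90.3 and 105 CPM on day 3 and 34.6, 41 and 67.8 CPM on day 7, which gave -0.90 ± 0.17 (SE) on the log2 scale and an edgeR adjusted p of 0.00179. Ephb3, a Wnt target that keeps cells in the crypt, fell by 1.40, and Znrf3, a Wnt feedback inhibitor, by 0.88 on the log2 scale. Lgr5, the marker of crypt base stem cells, missed the threshold (log2 fold change -1.91, SE 0.71, edgeR adjusted p 0.072). It was called in 3 of the 14 fits leaving out 1 library, with a log2 fold change of -2.57 without d7_WT_386, and in 4 of 11 other alternatives. It was 2.24, 7.16 and 10.2 CPM on day 3, and on day 7 it was 4.85 CPM in d7_WT_370, 6.08 CPM in d7_WT_386 and 0.233 to 0.525 CPM in the other 5. Axin2, another Wnt target, showed the same libraries apart, at 18.6 and 17.5 CPM against 0.875 to 5.64 CPM (edgeR adjusted p 0.0615). Both these libraries were also the high ones for Mptx1. Without d7_WT_386 the count of lower genes in the list was 14. Bmi1, a chromatin repressor, and Prom1, a surface glycoprotein, rose by 0.59 and 0.99.

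Genes of the fetal-like and wound-associated state rose in 16 of 45 tested. Ly6a, known as Sca-1 and used as a marker of repairing epithelium, was 48.5, 96.8 and 244 CPM on day 3 and 343, 421.2 and 784 CPM on day 7, which gave 1.97 ± 0.34 (SE) on the log2 scale and an edgeR adjusted p of 0.000976 with no overlap. Ly6c1, from the same cluster on chromosome 15, rose from a median of 2.38 to 72.7 CPM, also without overlap, and remained called with the leukocyte score (log2 fold change 4.04). Ly6g, best known on neutrophils, lies in that cluster too. It was 7.94 to 43.2 CPM on day 3, when S100a8 was at most 0.261 CPM. Plat, the tissue plasminogen activator, was 0.243, 1.19 and 3.79 CPM on day 3 and 2.21, 31.4 and 68.0 CPM on day 7. Itgb6, an integrin chain of migrating epithelium, rose by 0.99. Clu, a marker of revival stem cells, and Areg, a growth factor of repair, were not called, at medians of 4.51 and 3.91 CPM and of 192 and 174 CPM. A single gene of the list, 1 of 45, was called with the leukocyte score as covariate.

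Proliferation and mitosis genes were close to level, with 1 of 66 called higher and 2 lower, and a median log2 fold change of -0.07. Mki67, present in all dividing cells, was 145, 153 and 199 CPM on day 3 and 102, 141 and 204 CPM on day 7. Top2a was 110 to 140 CPM and 74.9 to 151 CPM, and neither was called. The D-type cyclins moved apart: Ccnd1 rose by 0.52 (SE 0.14) and Ccnd2 fell by 0.58 (SE 0.16) on the log2 scale. Plk1, a mitotic kinase, was at the threshold (log2 fold change -0.34, edgeR adjusted p 0.0484), and the call was kept in 3 of the 14 fits leaving out 1 library. Its promoter (chr7:122159185-122159484, plus strand) is shown because Plk1 is 1 of the 2 members called lower, with a CCAAT box and the TTTGAA of cell cycle genes in capitals.
Plk1: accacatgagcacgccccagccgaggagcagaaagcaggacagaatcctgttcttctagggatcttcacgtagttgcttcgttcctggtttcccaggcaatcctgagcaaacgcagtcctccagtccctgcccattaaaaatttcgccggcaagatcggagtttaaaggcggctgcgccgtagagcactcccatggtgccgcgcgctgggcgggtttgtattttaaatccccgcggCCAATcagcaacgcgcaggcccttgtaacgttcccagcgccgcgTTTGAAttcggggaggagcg
The CCAAT box began 14 bases before and the other motif 31 bases after the start. Among 43 genes of the list with a window, 79.1% held CCAAT and 44.2% held TTTGAA, against 39.1% and 12.2% of tested genes. In windows of the 900 genes called higher these shares were 35.0% and 12.2%, and in the 752 called lower 41.1% and 13.7%.

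Glycolysis and glucose uptake genes were called higher in 14 of 34 tested and lower in 2. Hk2, which traps glucose in the cell and binds the mitochondrial surface, was 97.0, 179 and 221 CPM on day 3 and 228, 301 and 599 CPM on day 7, which gave 0.92 ± 0.22 (SE) on the log2 scale and an edgeR adjusted p of 0.00771. The groups did not overlap, and d7_WT_356 was the 599 CPM. Pfkfb3, which makes the main activator of phosphofructokinase, rose from 1.38, 2.09 and 2.72 CPM to 4.41, 12.1 and 60.9 CPM. Slc16a3, the lactate exporter, rose from a median of 2.64 to 16.1 CPM (log2 fold change 2.80, SE 0.34, edgeR adjusted p 8.16e-05). Eno1, Pgk1 and Gapdh, enzymes of the lower pathway, rose by 0.64, 0.62 and 0.35.

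Isoforms changed in opposite directions within single steps of the pathway. Eno3, the muscle-type enolase, was 55.5, 88.3 and 128 CPM on day 3 and 4.99, 12.7 and 47.0 CPM on day 7, which gave -2.39 ± 0.43 (SE) on the log2 scale and an edgeR adjusted p of 0.00138. Pfkm, the muscle-type phosphofructokinase, fell by 0.95 while Pfkp, the platelet type, rose by 0.62 on the log2 scale. The main glucose transporter Slc2a1 was not called, at medians of 117 and 184 CPM. In the whole list 4 genes were called higher and 2 lower with the small intestine score as covariate, and Hk2 was among them (log2 fold change 1.19, edgeR adjusted p 0.0382). With the leukocyte score, Hk2 was not called (log2 fold change 0.50, edgeR adjusted p 0.362). In the fit of all 29 libraries its log2 fold change was 0.91 and the adjusted p 0.0512.

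Hypoxia response genes rose in 12 of 27 tested. Ak4, an adenylate kinase of mitochondria, rose from a median of 7.51 to 31.9 CPM with no overlap, and Egln3, an oxygen sensor that limits the response, from 30.6 to 77.0 CPM. Bnip3, a receptor for mitophagy, rose by 1.26. Hif1a itself was not called (79.2 to 245 CPM and 133 to 332 CPM), and neither was Vegfa, at medians of 62.5 and 64.5 CPM.

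Respiratory chain genes showed no call: 0 of 77 nuclear-encoded subunits passed by edgeR, with 2 at an unadjusted p under 0.05, and the DESeq2 Wald test called 1 higher and 1 lower. Without d3_WT_381, 7 were called higher. Their median log2 fold change was 0.11. Of 11 mitochondrial genome genes 0 were called by edgeR (1 at an unadjusted p under 0.05), with summed levels of 51071 to 563366 CPM on day 3 and 98833 to 295953 CPM on day 7.

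In fatty acid oxidation 7 of 45 genes were called higher and 2 lower, or 18 higher without d3_WT_381. Acadl, a dehydrogenase of long chains, was 164, 183 and 262 CPM on day 3 and 272, 392.9 and 445 CPM on day 7, which gave 0.91 ± 0.13 (SE) on the log2 scale and an edgeR adjusted p of 0.000201 with no overlap. It stayed called with either covariate.

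Fatty acid synthesis and desaturation genes were called in both directions, 5 higher and 6 lower of 21 (3 lower without d3_WT_348), with a median log2 fold change of -0.10. Acly and Acss2, which make cytosolic acetyl-CoA, fell by 0.90 and 0.86 on the log2 scale, and Fads2, a desaturase, by 1.05. Fasn, the synthase, was not called, at medians of 235 and 235 CPM. Dgat2, which completes triglycerides, rose by 1.27. Pck1 and Pcx, which feed gluconeogenesis and replenish the citric acid cycle, fell by 1.04 and 0.79.

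Detoxification enzymes were called higher in 13 of 78 tested and lower in 10, and in 25 higher without d3_WT_381. Cyp2f2, a cytochrome P450, was 7.28, 19.8 and 29.7 CPM on day 3 and 0.192, 1.26 and 3.78 CPM on day 7, which gave -3.20 ± 0.51 (SE) on the log2 scale and an edgeR adjusted p of 0.000509. Within the Cyp2c cluster on chromosome 19 (39007019 to 39886769), Cyp2c68 fell from a median of 74.2 to 13.2 CPM, Cyp2c66 rose from 2.53 to 15.2 CPM and the abundant Cyp2c55 was not called at 1801 and 2019 CPM. Adh1, an alcohol dehydrogenase, fell by 1.46 and Gstt1, a glutathione transferase, by 1.24 on the log2 scale. Slc7a11, the cystine importer that supplies glutathione synthesis, rose from a median of 2.02 to 8.98 CPM with no overlap.

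Of 39 necroptosis, gasdermin and caspase genes tested, 9 were called higher and 3 lower, or 15 higher without d3_WT_381. Ripk3, the kinase that starts necroptosis, was 22.5, 26.5 and 45.7 CPM on day 3 and 67.7, 70.1 and 123 CPM on day 7, which gave 1.39 ± 0.18 (SE) on the log2 scale and an edgeR adjusted p of 0.000137. All day 7 libraries were above all day 3 libraries. Nlrp3, an inflammasome sensor also found in leukocytes, had the largest rise in the list, at a log2 fold change of 5.24. Mlkl, the pore-forming target of Ripk3, rose by 0.60 and Gsdmd, the pore former of pyroptosis, by 0.78. Gsdmc3 and Gsdmc4, gasdermins of the colon epithelium, fell by 1.36 and 1.07 on the log2 scale, while Gsdmc2 was not called (-0.58, adjusted p 0.114). These near-identical neighbours on chromosome 15 may share reads. Among BCL2 family genes 6 of 20 rose, with Bak1, a killer of mitochondria, at 86.2 to 134 CPM and then 127 to 155 CPM. Of 17 genes tested that are linked to the mitochondrial permeability pore, 6 were called higher and 0 lower. Their largest log2 fold change was 0.58, and the count was 3 without d3_WT_352. Ppif and Vdac1 of this list were not called, at log2 fold changes of 0.07 and 0.06.

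Of 27 matrix metalloproteinases, related proteases and inhibitors tested, 13 were called higher and 3 lower. In 2 of the 27, no day 3 library exceeded 3 counts, so these could pass the filter only through day 7. Mmp3, Mmp13 and Timp1, with at most 4, 12 and 19 counts in a day 3 library, also passed it mainly through day 7. Their higher level was thus partly set in advance. Mmp3 and Mmp13, which cut matrix during remodelling, rose from at most 0.0886 and 0.251 CPM to medians of 2.10 and 5.19 CPM. Mmp10, of the same family, had 3 counts or fewer in each day 3 library. Its day 7 mean was at least 43.4-fold higher than the level of 3 counts in the day 3 group. Mmp8, a neutrophil collagenase, was at least 233-fold higher by the same measure, or 123-fold without d7_WT_419. The inhibitors moved both ways: Timp1 rose by 3.68, or 3.04 without d7_WT_356. Timp3, a matrix-bound inhibitor, fell by 1.84 and Timp2 by 0.92 on the log2 scale. Mmp3, Mmp10 and Mmp13 stayed called with the leukocyte score as covariate, and so did the neutrophil gene Mmp8. Their cell of origin was not tested.

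Ptgs2, the inducible cyclooxygenase that makes prostaglandins, was 0.168, 0.643 and 1.04 CPM on day 3 and 4.22, 24.6 and 146 CPM on day 7, which gave 6.10 ± 0.79 (SE) on the log2 scale and an edgeR adjusted p of 0.000125. It was 5.45 without d7_WT_419. Ptger3, a prostaglandin receptor, fell by 1.03. Among glycan-building enzymes, Fut2, which fucosylates the gut surface, rose from a median of 183 to 291 CPM, and St6gal1, a sialyltransferase, fell from 105 to 43 CPM. The fucosyltransferase Fut9 fell from a median of 11.4 to 0.385 CPM. In that list 5 of 25 genes were called higher and 6 lower.

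The same days were compared in KO mice to ask whether the change depended on epithelial Hk2. The test of the difference between the changes called 0 of 16371 genes (0%) with edgeR, at a smallest adjusted p of 1.00. Without adjustment, 440 passed 0.05, a count that was 1333 without d7_KO_420, 759 without d3_WT_381 and 741 without d7_WT_370. By the Wald test of DESeq2 the counts were 0 and 521. Both 440 and 521 were under the share that a threshold of 0.05 lets pass when nothing differs, and 1333 was over it. Reg3b had log2 fold changes of 3.80 in WT and 3.87 in KO, Nos2 4.66 and 4.62, Tnf 1.92 and 1.89 and Osmr 2.93 and 2.91. Hk2 had 0.92 (SE 0.22) in WT and -0.08 (SE 0.39) in KO, or 0.40 in KO without d3_KO_345, the KO library with 433 CPM of Hk2. In Retnlb the values were 2.33 and 1.04, and in Trpm6 -1.08 and -2.16.

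The antibody genes had the smallest unadjusted p among the named genes in this test. Jchain had 3.16 in WT and 0.55 in KO, and Igha 3.07 and 0.77. Their unadjusted p-values were 0.000164 and 0.000339 with edgeR, and neither passed adjustment. Cxcl2 had 6.14 in WT and 3.71 in KO, and Il1b 5.76 and 3.47. Without d3_KO_345 the KO values were 5.96 for Cxcl2 and 4.85 for Il1b, so the gap in Cxcl2 rested largely on that library. A missed threshold does not show that the genotypes changed alike.

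**Figure D5:**
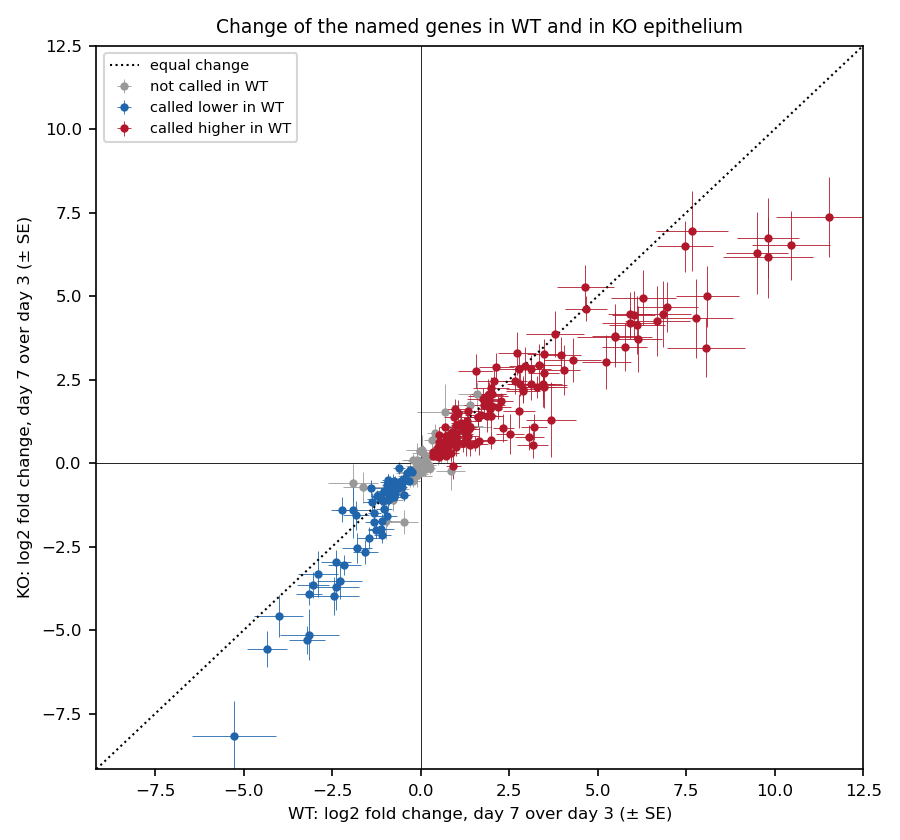
Log2 fold change of day 7 over day 3 in WT (horizontal axis) and in KO (vertical axis) for the named genes, each with its SE, and a diagonal line of equal change. Reg3b, at 3.80 and 3.87, lies on the line, while Cxcl2 (6.14 and 3.71), Jchain (3.16 and 0.55) and Hk2 (0.92 and -0.08) lie below it. All KO libraries are included here, and without d3_KO_345 the KO values of Cxcl2 and Hk2 were higher, as given above.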

How the data were processed

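RNA of isolated intestinal epithelial cells was sequenced in 38 libraries, of which the 7 WT day 3 and 7 WT day 7 libraries were compared here. The deposited values are raw read counts per gene, in 2 lane files per sample that were summed. Counts were made with featureCounts, unstranded, version 1.6.2 per the file headers and 1.5.2 per the submitters' processing notes, which also name STAR, Trim Galore and GRCm38. The annotation release is not given in the sources used here. The labels name a stranded kit, but as the counting was unstranded, reads of overlapping antisense genes cannot be told apart in these counts. Near-identical copies may also share reads.

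Genes were filtered by filterByExpr and tested with edgeR 4.0.16 (quasi-likelihood test, TMM scaling, R 4.3.3) with Benjamini-Hochberg adjustment and a threshold of 0.05. The SE of a log2 fold change was derived from the test's F statistic. The difference between genotypes was tested as an interaction in 29 libraries. Replicate libraries were checked for identical counts and none matched, and the fits were tested on simulated data with 200 changed genes. Alternatives were DESeq2 1.42.0, other scalings and filters, 1 lane, marker scores as covariates and leaving out each library.

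The comparison and the gene lists were chosen with earlier results of these data known. Named genes were, in those called with a mean log2 CPM of at least 2 and no overlap, the 6 largest changes in each direction, the anchor genes of each list, up to 2 called members of each list in each direction, and Hk2. The rule gave 211 genes, and 60 were added after their values were seen. Promoters are RefSeq sequences of GRCm38.p6.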

Additional observations from a re-analysis of the deposited data

Results flagged for a closer look

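In groups of 7 libraries, a value was singled out where the highest or lowest library stood apart by Dixon's criterion at the 95% level. This held for 37 of 539 pairs of a named gene and a day, and chance alone gives about 1 in 20. None of the causes was tested. Library d3_WT_381 stood above the other 6 of its day in B2m (503 CPM), H2-Aa (62.0 CPM), Ocln (139.7 CPM), Dgat2 (71.4 CPM), mt-Nd1 (63749 CPM), Selenbp1 (1230.4 CPM), Gsta1 (26.2 CPM) and Gsdmc2 (821 CPM). Library d3_WT_381 stood below the other 6 of its day in Ccnd2 (122 CPM), Plk1 (65.2 CPM), Fads2 (71.6 CPM), Ern2 (65.6 CPM), Egfr (30.7 CPM), St6gal1 (41.8 CPM), Acly (224 CPM) and Creb3l1 (168 CPM). Library d7_WT_386 stood below the other 6 of its day in Cdh1 (957 CPM), Mylk (50.3 CPM), Cpt1a (269.6 CPM) and St3gal1 (12.6 CPM). Library d7_WT_356 stood above the other 6 of its day in Hk2 (599 CPM), Ripk3 (123 CPM), Duoxa2 (169.6 CPM) and Trim40 (166 CPM). Library d3_WT_348 stood below the other 6 of its day in Hoxd13 (1.29 CPM), Hoxd10 (0 CPM) and Hoxd12 (0 CPM). Library d7_WT_370 stood below the other 6 of its day in Slc51b (22.9 CPM), Agpat2 (110.1 CPM) and Gsta1 (11.4 CPM). Library d3_WT_487 stood above the other 6 of its day in Il1a (0.783 CPM). Library d3_WT_487 stood below the other 6 of its day in Cd7 (1.36 CPM). Library d3_WT_346 stood above the other 6 of its day in Xbp1 (341 CPM) and Il1f9 (0.0837 CPM). Library d7_WT_361 stood below the other 6 of its day in Jchain (1.23 CPM). Library d7_WT_393 stood above the other 6 of its day in Ocln (119 CPM). Library d7_WT_419 stood below the other 6 of its day in Pcx (21.7 CPM).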

How the results depend on the processing

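The 3002 calls (1650 higher, 1352 lower) stayed within 1.5 times under DESeq2 size factors, the DESeq2 Wald test, both filters, 1 lane, robust dispersions and a fit of all 29 libraries, at 2546 to 3883. With the leukocyte score as covariate 173 genes were called (91 higher, 82 lower), and with the small intestine score 446 (302 higher, 144 lower), of which 67.7% were higher against 55.0% in the comparison as reported. A minimum change of 1 on the log2 scale in either direction left 1319 (843 higher, 476 lower). Leaving out both libraries with low TMM factors, an alternative chosen after seeing the data, gave 4311 calls, 2107 of them lower. Leaving out each library gave 2323 to 4051 calls, 1277 to 2111 higher and 1040 to 1940 lower. The interaction count was 0 under each alternative run, including 29 fits leaving out 1 library. With the leukocyte score as covariate 11 named genes changed sign: Cd7 (-0.24), Ptprc (-0.67), Itgb2 (-0.31), Vim (-0.37), Gbp4 (-0.24), Cd274 (-0.11), Nlrc5 (-0.14), Slc26a3 (0.15), Insl5 (0.13), Fyb (-0.18) and Oxct1 (0.030). The cause was not tested. Of the 209 called named genes, 180 were called in all 14 fits leaving out 1 library. No paired analysis was possible because no animal number is shared between the days. At the depth of these libraries, levels near 3 counts limit folds of genes absent on day 3.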
